A study of Mus musculus with 27 samples.

Results

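Cholesterol synthesis was followed at the mRNA level in mouse liver through 7 genes, chosen by symbol from a table of 55414 genes and found by their Ensembl identifiers. The genes were Hmgcs1, Idi1, Fdps, Fdft1, Sqle and Lss, which encode 6 enzymes of the pathway, and Srebf2, which encodes the transcription factor SREBP2. All 7 were among the 14114 genes that passed the low-count filter. RNA was taken from the livers of 27 female Balb/c mice, 8 weeks old at purchase, in 8 groups. The control group (4 mice) received olive oil into the peritoneum and PBS into the tail vein, and the 4MU group (3 mice) received olive oil and a daily gavage of 4-methylumbelliferone, an inhibitor of hyaluronan synthesis. The siLuc-LNP and siHAS2-LNP groups (3 mice each) received olive oil and lipid nanoparticles in the tail vein, carrying siRNA against luciferase, which mice lack, or against Has2, the gene of hyaluronan synthase 2. The CCl4 group (2 mice) received carbon tetrachloride, a hepatotoxin, into the peritoneum in place of olive oil, and 3 groups of 4 mice each, CCl4 + 4MU, CCl4 + siLuc-LNP and also CCl4 + siHAS2-LNP, received it together with the same treatments, all over a fortnight. No PBS injection is given in the labels of the 4MU, CCl4 and CCl4 + 4MU groups, so handling and treatment cannot be told apart there. The study's methods also describe a gavage of control mice with the carboxymethyl cellulose vehicle, which the labels of the control group do not give, so it is uncertain whether 4MU against control compares mice that were both gavaged. The nanoparticles were themselves built in part from cholesterol, and all groups given siRNA received them.

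Hepatocytes make cholesterol from acetyl-CoA in a chain of cytosolic and endoplasmic reticulum enzymes. HMGCS1 forms HMG-CoA at the head of the mevalonate branch, IDI1 and FDPS build isoprenoid units into farnesyl diphosphate, FDFT1 joins a pair of these into squalene, SQLE oxidises squalene, and LSS closes the rings to give lanosterol, the first sterol. SREBP2 is held in the endoplasmic reticulum by SCAP and the INSIG proteins while sterols are plentiful. When sterols fall, it is cut in the Golgi and its released part enters the nucleus, where it binds sterol regulatory elements, usually beside binding sites of NF-Y, in the promoters of these enzymes and in its own.

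Promoter windows reaching from 250 bases before to 50 bases after the annotated start (RefSeq, GRCm38.p6) were found for 4 of the 7 genes. They are shown because the 7 genes moved together between mice, as described further on. Capitals mark the core of the sterol regulatory element (TCACNCCA) and the NF-Y motif (CCAAT), each read on either strand. The windows were chr13:119690101-119690400 for Hmgcs1, chr15:82147019-82147318 for Srebf2, chr13:8885356-8885655 for Idi1 and chr10:76531355-76531654 for Lss, all on the plus strand.
Hmgcs1: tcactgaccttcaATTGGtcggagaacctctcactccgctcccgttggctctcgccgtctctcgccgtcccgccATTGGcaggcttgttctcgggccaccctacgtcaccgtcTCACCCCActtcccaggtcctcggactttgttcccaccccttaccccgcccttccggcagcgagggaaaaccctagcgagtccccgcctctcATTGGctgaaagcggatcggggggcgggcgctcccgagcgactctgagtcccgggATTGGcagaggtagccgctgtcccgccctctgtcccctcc
Srebf2: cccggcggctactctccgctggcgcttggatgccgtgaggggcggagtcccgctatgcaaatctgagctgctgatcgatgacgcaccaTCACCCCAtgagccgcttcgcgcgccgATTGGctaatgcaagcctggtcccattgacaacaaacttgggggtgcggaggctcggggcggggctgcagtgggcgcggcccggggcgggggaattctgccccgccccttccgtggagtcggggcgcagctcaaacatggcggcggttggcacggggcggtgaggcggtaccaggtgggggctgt
Idi1: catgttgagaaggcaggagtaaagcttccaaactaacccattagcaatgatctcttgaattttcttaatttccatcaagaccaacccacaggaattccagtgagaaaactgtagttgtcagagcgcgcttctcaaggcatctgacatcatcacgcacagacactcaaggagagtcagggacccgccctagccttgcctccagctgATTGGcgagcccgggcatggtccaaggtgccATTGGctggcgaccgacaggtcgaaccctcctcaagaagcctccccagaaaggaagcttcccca
Lss: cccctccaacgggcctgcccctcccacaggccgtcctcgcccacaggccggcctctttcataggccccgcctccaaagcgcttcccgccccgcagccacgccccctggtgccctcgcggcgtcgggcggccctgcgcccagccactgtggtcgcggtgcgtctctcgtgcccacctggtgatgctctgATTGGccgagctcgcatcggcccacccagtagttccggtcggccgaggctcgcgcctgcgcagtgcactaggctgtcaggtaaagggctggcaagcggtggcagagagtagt

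TCACNCCA stood once in the Hmgcs1 window, its first base at position -137 from the start, and once in the Srebf2 window, at position -162, and in neither of the other two. CCAAT stood 4 times in the window of Hmgcs1, 2 times in that of Idi1 and 1 time each in those of Lss and Srebf2, and it overlapped no TCACNCCA match. GGGCGG, the Sp1 motif, stood 3 times in Hmgcs1, 1 time in Idi1, 2 times in Lss and 5 times in Srebf2, and CACGTG, an E-box, in none of them. Of all 32851 promoter windows, which have the same length, 4.36% held TCACNCCA, 37.4% CCAAT, 35.7% GGGCGG and 7.15% CACGTG. Of 14 further sterol enzymes with a window, 1 (Msmo1, a C4-methyl sterol oxidase) held TCACNCCA and 13 held CCAAT. These enzymes were counted as genes, by any of their windows, and Pmvk and Dhcr7 have more than 1. The count is therefore in another unit than the shares over windows. A match is a string of letters and not a measured binding site.

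Total counts ranged from 7044386 (CCl4 + siHAS2-LNP mouse 4) to 29425937, and the next lowest total was 18146198. Levels are given in CPM, counts scaled to a common library size with TMM factors, which balance libraries of different composition. In CPM the 3 counts that a count of 0 allows, for counting error alone, lay between 0.102 and 0.426 CPM. Each of the 7 genes had counts above 3 in every mouse, from 12 counts of Fdps upwards. Has2 itself had 0 counts in 25 libraries, 2 counts in one and 1 count in another, so its silencing was not detectable at this depth. The hepatocyte markers Alb, Ttr, Apoa1, Tat, Hnf4a and Cps1, checked for the labelled tissue, were above 0 in every library.

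Divided by transcript length, the median over 27 mice was highest for Hmgcs1, with 74.3 CPM per kilobase, followed by Fdft1 with 45.5, Sqle with 29.4, Idi1 with 15.1, Srebf2 with 14.4, Lss with 9.71 and Fdps with 3.82. These levels depended on how much of each transcript could be counted, because read pairs that fit several places were not counted. Stretches of at least 85 bases with at least 95% identity to other places of GRCm39 covered 95.8% of the Idi1 transcript, 91.3% of Fdps, 48.0% of Fdft1 and 9.67% of Hmgcs1, and none of Sqle, Lss or Srebf2. The levels of Idi1 and Fdps, and in part that of Fdft1, are therefore uncertain, and so is the order of the genes.

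Hmgcs1 (ENSMUSG00000093930, GRCm39 chromosome 13, 120151915 to 120170470) ranged more than any other of the 7 genes between the lowest and the highest mouse, from 39.3 to 2635 CPM or 67.0-fold. In control mice 1 to 4 it stood at 296, 624, 809 and 373 CPM, in 4MU mice 1 to 3 at 197, 380.4 and 118 CPM, and in siLuc-LNP mice 1 to 3 at 154, 880.4 and 496 CPM. In siHAS2-LNP mice 1 to 3 it stood at 909, 2635 and 438 CPM. The highest value of all 27 mice thus belonged to siHAS2-LNP mouse 2, and the other two mice of that group were within or close to the range of the control and siLuc-LNP mice. In the CCl4 mice Hmgcs1 was at 220.0 and 304 CPM, in CCl4 + 4MU mice 1 to 4 at 189, 121, 173 and 423 CPM, and in CCl4 + siLuc-LNP mice 1 to 4 at 587, 279, 65.2 and 648 CPM. In CCl4 + siHAS2-LNP mice 1 to 4 it was at 39.3, 214, 202 and 491 CPM. The mice of a single group differed by up to 12.5-fold, in the last of these groups.

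Sqle (ENSMUSG00000022351, chromosome 15, 59186869 to 59203043), Idi1 (ENSMUSG00000058258, chromosome 13, 8935537 to 8942487) and Fdps (ENSMUSG00000059743, chromosome 3, 89000888 to 89019213) also varied widely. Sqle ran from 8.96 to 179.8 CPM, with a mean ± SD of 102 ± 21.7 in control (n = 4), 143 ± 38.1 in siHAS2-LNP (n = 3) and 43.9 ± 30.4 in CCl4 + siHAS2-LNP mice (n = 4). Idi1 ran from 2.31 to 104.9 CPM, with 42.3 ± 10.3 in control, 70.5 ± 26.4 in siHAS2-LNP and 20.1 ± 17.4 in CCl4 + siHAS2-LNP mice. Fdps ran from 0.47 to 16.95 CPM, with 8.98 ± 5.52, 11.3 ± 4.52 and 3.99 ± 4.12 in the same groups. Within CCl4 + siHAS2-LNP mice the highest value exceeded the lowest 9.22-fold for Sqle, 18.2-fold for Idi1 and 21.04-fold for Fdps, and within CCl4 + siLuc-LNP mice 15.0-fold, 20.6-fold and 5.26-fold.

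Fdft1 (ENSMUSG00000021273, chromosome 14, 63382189 to 63417027), at the step where sterols branch off from other isoprenoids, varied less. It stood at 157, 203, 253 and 166 CPM in control mice 1 to 4, at 158, 132 and 79.5 CPM in 4MU mice 1 to 3, and at 123, 272 and 213 CPM in siLuc-LNP mice 1 to 3. In siHAS2-LNP mice 1 to 3 it stood at 266, 398 and 212 CPM. The CCl4 mice, at 123 and 108 CPM, lay below all control mice, and the 3 siHAS2-LNP mice all lay above 3 of the 4 control mice. In CCl4 + 4MU mice 1 to 4 Fdft1 was at 152, 119, 132 and 303 CPM, in CCl4 + siLuc-LNP mice 1 to 4 at 196, 177, 156 and 191 CPM, and in CCl4 + siHAS2-LNP mice 1 to 4 at 101, 109.6, 128 and 181 CPM. All 4 of the last lay below the 3 siHAS2-LNP mice.

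Lss (ENSMUSG00000033105, chromosome 10, 76367298 to 76392976) ran from 17.6 to 158 CPM, with 77.4 ± 33.4 in control, 103 ± 41.3 in siHAS2-LNP and 46.5 ± 28.9 in CCl4 + siHAS2-LNP mice. Srebf2 (ENSMUSG00000022463, chromosome 15, 82031382 to 82093201) was the narrowest of the 7, from 35.9 to 111 CPM. Its values were 82.1, 69.1, 61.9 and 60.2 CPM in control mice 1 to 4, 73.3, 66.3 and 38.6 CPM in 4MU mice 1 to 3, and 38.6, 83.4 and 86.4 CPM in siLuc-LNP mice 1 to 3. The siHAS2-LNP mice had 111, 107 and 81.6 CPM. The CCl4 mice, with 65.9 and 64.5 CPM, fell inside the control range. CCl4 + 4MU mice 1 to 4 had 77.1, 73.3, 68.8 and 104 CPM, CCl4 + siLuc-LNP mice 1 to 4 had 79.4, 80.5, 48.4 and 78.4 CPM, and CCl4 + siHAS2-LNP mice 1 to 4 had 35.9, 56.5, 53.7 and 81.1 CPM. The highest of these last 4 was just under the lowest siHAS2-LNP mouse.

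**Figure D1:**
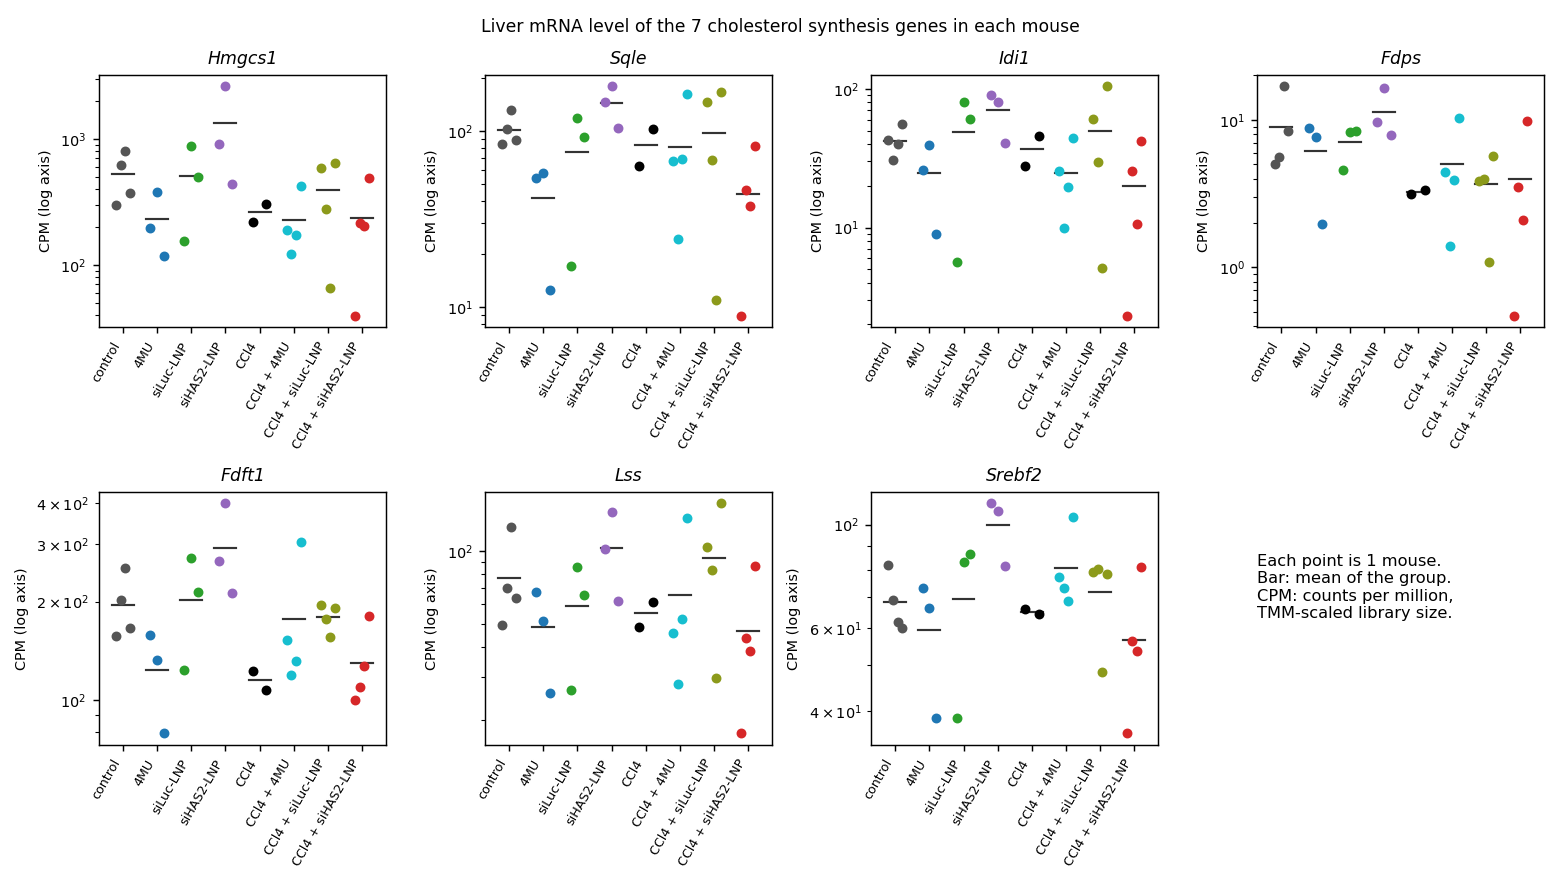
Level of each of the 7 genes (CPM, log axis) in each of the 27 mice, by group; points are mice and bars are group means. All 7 genes have their highest group mean in the siHAS2-LNP mice, and single mice such as CCl4 + siHAS2-LNP mouse 1 (Hmgcs1 39.3 CPM) lie far below the others of their group.

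Ordered by mean level, siHAS2-LNP came first for 7 of the 7 genes and CCl4 + siHAS2-LNP last for 3 of them (Idi1, Lss and Srebf2). The last place went to CCl4 + 4MU for Hmgcs1, to 4MU for Sqle and to CCl4 for Fdps and Fdft1. Of the 49 pairs of neighbouring groups in these orders, 49 overlapped in their ranges. Neighbours in an order by mean overlap easily, and the share over all tested genes was not counted, so nothing is read from this count. Some groups farther apart did not overlap, such as siHAS2-LNP and CCl4 + siHAS2-LNP for Fdft1.

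The low and high mice were largely shared between the genes. In the 4MU group mouse 3 was lowest for 7 of the 7 genes, in siLuc-LNP mouse 1 for 7, in siHAS2-LNP mouse 3 for 7, in CCl4 + siLuc-LNP mouse 3 for 7 and in CCl4 + siHAS2-LNP mouse 1 for 7, while in CCl4 + 4MU mouse 2 was lowest for 6. Mouse 4 of CCl4 + siHAS2-LNP, the shallowest library, was highest for 7 genes, as was mouse 4 of CCl4 + 4MU. In the control group, mouse 1 was lowest for 5 genes and mouse 3 highest for 5, while Srebf2 was highest in mouse 1. In CCl4 + siLuc-LNP mouse 3, log2 CPM minus the group mean was -2.14 for Hmgcs1, -2.56 for Sqle and -2.60 for Idi1, and -0.20 for Fdft1 and -0.53 for Srebf2.

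**Figure D2:**
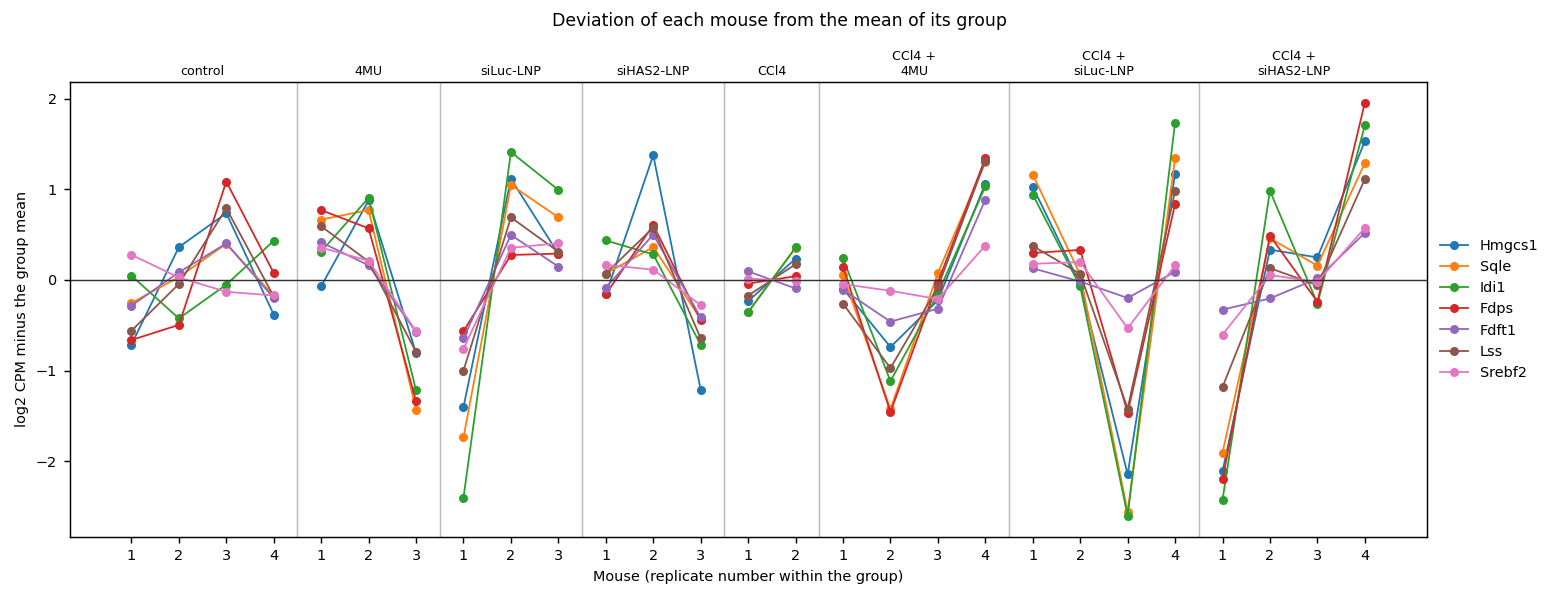
Log2 CPM of each gene minus the mean of its group, for each of the 27 mice; lines join the mice of a group for 1 gene. The lines of the 7 genes run together in most groups, with the deepest points in siLuc-LNP mouse 1, CCl4 + siLuc-LNP mouse 3 and CCl4 + siHAS2-LNP mouse 1.

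These deviations from the group means were compared between the genes over 27 mice, with 1 gene's values permuted 100000 times within groups (two-sided) and Benjamini-Hochberg adjustment over the 21 pairs. Pearson's r ran from 0.65 (Idi1 with Fdft1, adjusted p = 0.000467) to 0.95 (Sqle with Idi1, adjusted p = 2.1e-05, at the smallest p the permutations can give), with a median of 0.85, and Spearman's rho from 0.66 to 0.95. All 21 pairs passed an adjusted p of 0.05 by both measures, and r was positive in all. How many pairs of other genes would pass was not tested, so this count has no background to be read against. Without the 2 mice farthest from the median of the first gene, r lay between 0.63 and 0.93. Srebf2 followed the enzymes with r from 0.74 (with Fdps, adjusted p = 0.000672, rho 0.66, adjusted p = 0.00239) to 0.87 (with Idi1, adjusted p = 0.00028, rho 0.79, adjusted p = 0.000448). Within the 14 CCl4 mice alone the 21 values of r lay between 0.60 and 0.98 and all 21 pairs passed. Within the 13 other mice they lay between 0.54 and 0.98, and 15 pairs passed by Pearson's r and 11 by Spearman's rho.

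The width of this variation was compared with that of all 14114 tested genes. The SD of log2 CPM within groups was 1.37 for Idi1, larger than in 99.8% of tested genes, 1.202 for Sqle (99.5%), 1.15 for Hmgcs1 (99.4%), 1.07 for Fdps (99.2%) and 0.82 for Lss (97.4%), where the median of all tested genes was 0.30. Fdft1 (0.43, 74.2%) and Srebf2 (0.39, 68.2%) were nearer to the middle. Of the other enzymes, Mvd (1.13), Cyp51 (1.05), Msmo1 (0.95) and Nsdhl (0.92) were above that median too. So was Insig1 (0.85), a retention factor of SREBP2, whereas the proteases that cut SREBP2, Mbtps1 (0.18) and Mbtps2 (0.25), were below it. Not all genes followed this split: the enzyme Ebp (0.29) was below the median, and Insig2 (0.47) and Srebf1 (0.63), which are no sterol enzymes, were above it.

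**Figure D3:**
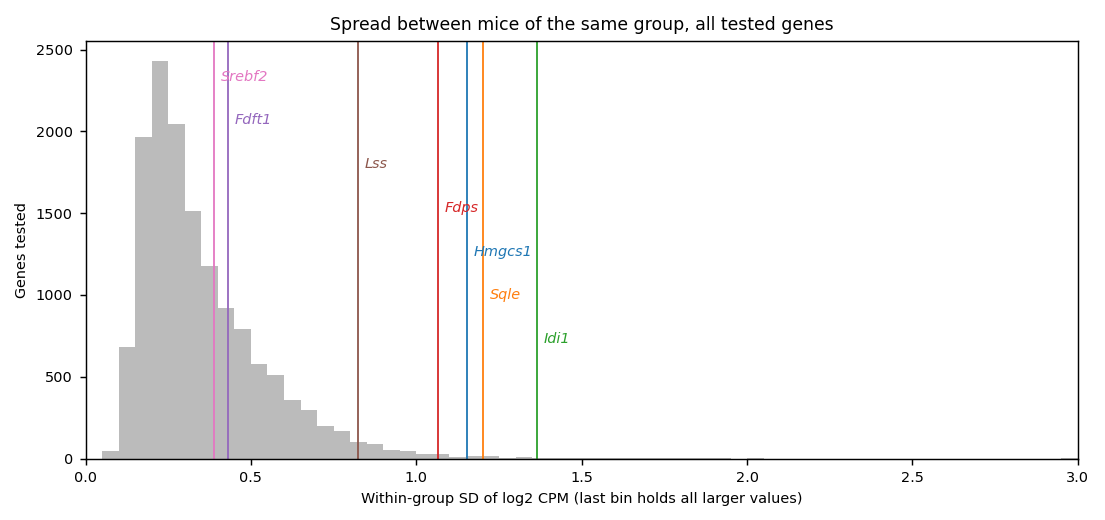
Number of tested genes by within-group SD of log2 CPM (grey bars, bins of 0.05), with the 7 genes marked by lines. Idi1, Sqle, Hmgcs1, Fdps and Lss lie in the right tail and Fdft1 and Srebf2 near the bulk of the genes.

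What else moved with this variation was examined for Hmgcs1, against 12 measures of the same mice as deviations from their group means, chosen after the data were seen and tested with the same permutations. None of the 12 passed an adjusted p of 0.05. The log2 TMM factor had Pearson's r 0.55 (p = 0.0175, adjusted p = 0.137) and Spearman's rho 0.38 (p = 0.0834, adjusted p = 0.334), and r 0.31 without the 2 farthest mice. Summed endothelial markers had r -0.43 (adjusted p = 0.137) and rho -0.48 (adjusted p = 0.157), ductal markers r 0.35 (adjusted p = 0.137) and rho 0.45 (adjusted p = 0.157), and hepatocyte markers r -0.34 (adjusted p = 0.323) and rho -0.31 (adjusted p = 0.481). The log2 total count had r -0.17 (adjusted p = 0.776) and rho 0.13 (adjusted p = 0.768), and r 0.45 without the 2 farthest mice. Srebf1, the gene of the SREBP form that drives fatty acid synthesis, had r -0.16 (adjusted p = 0.722) and rho -0.19 (adjusted p = 0.574) with Hmgcs1. Time of day, feeding and date of death are not in the labels, and their part was not tested.

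The tested genes whose log2 CPM over 27 mice was most like the mean of the 6 enzymes were nearly all of the same pathway, by a ranking that has no test. Mvd (r = 0.97), Nsdhl (0.97), Cyp51 (0.96) and Msmo1 (0.96) came first, followed by Pstpip2 (0.92), Dhcr7 (0.92), Hsd17b7 (0.91), Acat2 (0.91), Sc5d (0.90) and Insig1 (0.88). MVD makes isopentenyl diphosphate, CYP51, MSMO1, NSDHL and HSD17B7 demethylate lanosterol and its products, SC5D and DHCR7 act late in the pathway, and ACAT2 supplies acetoacetyl-CoA to HMGCS1. Pstpip2, an F-BAR adaptor of the cytoskeleton, is not an enzyme of it. With group means removed, r was 0.96 for Mvd, 0.98 for Nsdhl, 0.97 for Cyp51, Msmo1 and Dhcr7, and 0.93 for Pstpip2. Most like Srebf2 were Mvk (0.88), Mmab (0.85) and Dhcr7 (0.83), of which Mvk encodes mevalonate kinase and Mmab, its neighbour in the genome, an enzyme of vitamin B12 metabolism.

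Groups were then compared in edgeR (quasi-likelihood), and p-values were adjusted after Benjamini and Hochberg across all 14114 genes, with 0.05 as threshold. In 14 of the 15 comparisons and interactions 0 of the 7 genes passed with edgeR, and likewise 0 with DESeq2 and 0 with limma-voom. In 5 of these 14 at least 1 gene had an unadjusted p under 0.05. The comparison that called members was CCl4 + siHAS2-LNP against siHAS2-LNP. Because the 7 genes moved together between mice, the counts of higher and lower genes below are not counts of separate observations. A single mouse can shift all 7 at once, and the share of all tested genes with each sign is not given.

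In CCl4 + siHAS2-LNP against siHAS2-LNP mice, which asks what the injury did where Has2 was targeted, all 7 genes were lower, and Hmgcs1, Fdft1 and Srebf2 passed the test. The log2 fold change was -2.49 ± 0.73 (SE) for Hmgcs1 (edgeR adjusted p = 0.0253), -1.17 ± 0.30 for Fdft1 (adjusted p = 0.0115) and -0.82 ± 0.26 for Srebf2 (adjusted p = 0.0411). The ratio of the group means of CPM was 5.61 for Hmgcs1, 2.25 for Fdft1 and 1.76 for Srebf2, each siHAS2-LNP over CCl4 + siHAS2-LNP. The mice did not overlap for Fdft1, Srebf2 and Sqle and did for the others. The share of all tested genes without overlap was not counted, so nothing particular to these genes is read from its absence. The log2 fold changes of those that did not pass were -1.86 ± 0.80 (SE) for Idi1, -1.72 ± 0.71 for Sqle, -1.68 ± 0.68 for Fdps and -1.16 ± 0.54 for Lss, with adjusted p between 0.103 and 0.166.

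Of all tested genes, 12.8% passed in this comparison by edgeR (5.09% lower and 7.74% higher), 15.5% by DESeq2 and 11.6% by limma-voom. DESeq2 called the same 3 genes and limma-voom these and Fdps. All 7 had an unadjusted p under 0.05, which 27.3% of tested genes had. The median log2 fold change was -1.68 for the 7 genes and 0.03 for all tested genes.

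The number of genes past the threshold changed when single mice were left out. The share of all tested genes that passed in those fits is not given. Fewer mice lower the power for every gene, so the changes are not read as particular to the 7. Without siHAS2-LNP mouse 2, which had the highest Hmgcs1 of all, 0 of the 7 genes passed with edgeR (2 with an unadjusted p under 0.05), and Hmgcs1 stood at -1.52. Without siHAS2-LNP mouse 1, 2 passed (Hmgcs1 and Fdft1), and without CCl4 + siHAS2-LNP mouse 1, mouse 2 or mouse 3 only Fdft1 did, 1 gene in each case. Without CCl4 + siHAS2-LNP mouse 4, the shallow library, 4 passed. With siHAS2-LNP mouse 2 and CCl4 + siHAS2-LNP mouse 1 both left out, a choice made after the data were seen, 0 passed (1 with an unadjusted p under 0.05), and the values were -1.17 for Hmgcs1, -0.79 for Fdft1 and -0.61 for Srebf2.

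The other genes of the pathway in the same comparison were taken from 4 lists of 41 genes, all tested, of which 10 were lower and 1 higher. Of 15 further sterol enzymes 7 were lower by edgeR. These were Msmo1 (-2.43, adjusted p = 0.00798), the sterol reductase Tm7sf2 (-2.15, adjusted p = 0.000273), Cyp51 (-2.14, adjusted p = 0.0299), Hsd17b7 (-1.66, adjusted p = 0.019), the mevalonate pathway kinases Pmvk (-1.37, adjusted p = 0.0481) and Mvk (-1.35, adjusted p = 0.00791), and the sterol isomerase Ebp (-0.66, adjusted p = 0.0413). The median of all 15 was -1.35. Leaving out single mice gave between 1 (without siHAS2-LNP mouse 2) and 12 (without CCl4 + siHAS2-LNP mouse 4) lower enzymes, and 3 or 4 without siHAS2-LNP mouse 1 or any of CCl4 + siHAS2-LNP mice 1 to 3. Here too the share of all tested genes in those fits is not given. Of 10 genes of SREBP control, 1 was lower, Scap (-0.74, adjusted p = 0.0142), the escort of SREBP2. Of 8 genes of sterol uptake and transport, 1 was lower, Stard4 (-1.14, adjusted p = 0.0176), a carrier of cholesterol in the cytosol. Of 8 genes of export and esterification, Abcg8, a subunit of the sterol exporter of the canalicular membrane, was lower (-1.20, adjusted p = 0.0178) and Soat2, which esterifies cholesterol, higher (0.91, adjusted p = 0.0151).

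Markers of other cells moved between the same groups. Of 5 Kupffer cell markers 4 were lower, and their summed level was 330 to 385 CPM in siHAS2-LNP and 97.2 to 136 CPM in CCl4 + siHAS2-LNP mice. All 4 markers of cycling cells were higher, from 18.9 to 25.2 CPM summed to 122 to 144 CPM. Of 6 stellate cell and myofibroblast markers 2 were higher (75.8 to 80.2 against 134 to 218 CPM), of 5 markers of infiltrating macrophages 1 (133 to 151 against 125 to 253 CPM) and of 4 ductal markers 1 (3.88 to 6.89 against 10.3 to 18.1 CPM). Of 6 hepatocyte markers 0 passed with edgeR (2 with an unadjusted p under 0.05), with 147171 to 169296 against 107382 to 162345 CPM, and of 5 endothelial and 4 lymphocyte markers 0 passed (0 with an unadjusted p under 0.05), with 47.3 to 73.7 against 54.9 to 69.9 CPM and 15.9 to 19.0 against 12.2 to 20.4 CPM. Over the 27 libraries Gpnmb, Ms4a1 and Ccnb1 were each at 0 in 1 library and no other marker was at 0 in any. The part of these cells in the lower enzyme levels was not tested. In whole liver, fewer cells of a type and less RNA per cell cannot be told apart.

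In CCl4 against control mice, the effect of the injury without treatment, 0 of the 7 genes passed with edgeR and 1 (Fdft1) had an unadjusted p under 0.05, although 34.0% of all tested genes passed and 43.9% had an unadjusted p under 0.05. Fdft1 stood at -0.76 ± 0.36 (SE, adjusted p = 0.104) and its mice did not overlap, and Fdps at -1.47 ± 0.80 (adjusted p = 0.159), also without overlap. Here too the share of all tested genes without overlap was not counted. Hmgcs1 was at -1.003 ± 0.85 (adjusted p = 0.382), Lss at -0.49 ± 0.63, Sqle at -0.30 ± 0.81, Idi1 at -0.21 ± 0.89 and Srebf2 at -0.07 ± 0.30 (adjusted p = 0.886). With library totals in place of TMM the median of all tested genes moved from -0.02 to 0.39, and Sqle (0.14), Idi1 (0.23) and Srebf2 (0.34) changed sign but stayed below that median. The mean of the CCl4 groups against the mean of the other groups, all groups weighted alike, gave 3 genes past the threshold with edgeR. These were Hmgcs1 (-0.97, adjusted p = 0.0337), Fdps (-1.09, adjusted p = 0.0112) and Fdft1 (-0.40, adjusted p = 0.0391), where 51.9% of all tested genes passed. This contrast averages arms that differed. Hmgcs1 stood at -2.49 in the siHAS2-LNP arm and -0.03 in the 4MU arm, and Fdft1 at -1.17 and 0.52.

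Of the 41 genes of the 4 lists, 3 were higher and 7 lower in CCl4 against control mice, a smaller share than the 34.0% of all tested genes that passed, so nothing particular to these lists is read from the count. Tm7sf2 fell (-2.65, adjusted p = 0.000125), while Lbr, a nuclear envelope protein that is also a reductase for the same step, rose (1.64, adjusted p = 0.00137), and the remaining 13 enzymes did not pass. Scap (-0.92, adjusted p = 0.00382) and Nr1h2 (-0.85, adjusted p = 0.00533), a sterol-sensing nuclear receptor, fell. Of the genes of uptake and transport, such as Scarb1, Npc1 and Stard4, 0 of 8 passed with edgeR (0 with an unadjusted p under 0.05). Of those of export and esterification, Abcg5 (-1.28, adjusted p = 0.0177), Abcg8 (-1.89, adjusted p = 0.00119), Lcat (-1.03, adjusted p = 0.00353) and Soat2 (-0.87, adjusted p = 0.0202) fell and Abcg1 (0.89, adjusted p = 0.00404) and Soat1 (0.76, adjusted p = 0.0456) rose, all by edgeR.

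In the arms with 4MU and siLuc-LNP the injury gave no called member. In CCl4 + 4MU against 4MU mice, where 23.7% of tested genes passed, 0 of the 7 genes did with edgeR (0 with an unadjusted p under 0.05), 5 were higher and 2 lower, and their median log2 fold change was 0.44. In CCl4 + siLuc-LNP against siLuc-LNP mice, where 24.2% passed, 0 did (0 with an unadjusted p under 0.05), 4 were higher and 3 lower, with a median of 0.04. Of the 41 other pathway genes, 2 were higher and 1 lower in the 4MU arm, and 2 higher and 3 lower in the siLuc-LNP arm. Both shares are smaller than those of all tested genes, so nothing particular to the lists is read from them. In the 4MU arm Abcg1 (1.62, adjusted p = 6.57e-06) and Soat1 (1.2002, adjusted p = 0.00228) rose and Ggps1 (-0.67, adjusted p = 0.0342), which makes geranylgeranyl diphosphate, fell. In the siLuc-LNP arm Tm7sf2 (-1.48, adjusted p = 0.00399), Scap (-0.82, adjusted p = 0.00343) and Abcg8 (-1.05, adjusted p = 0.0224) fell and Abca1 (0.63, adjusted p = 0.0481) and Soat1 (0.83, adjusted p = 0.0254) rose.

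**Figure D4:**
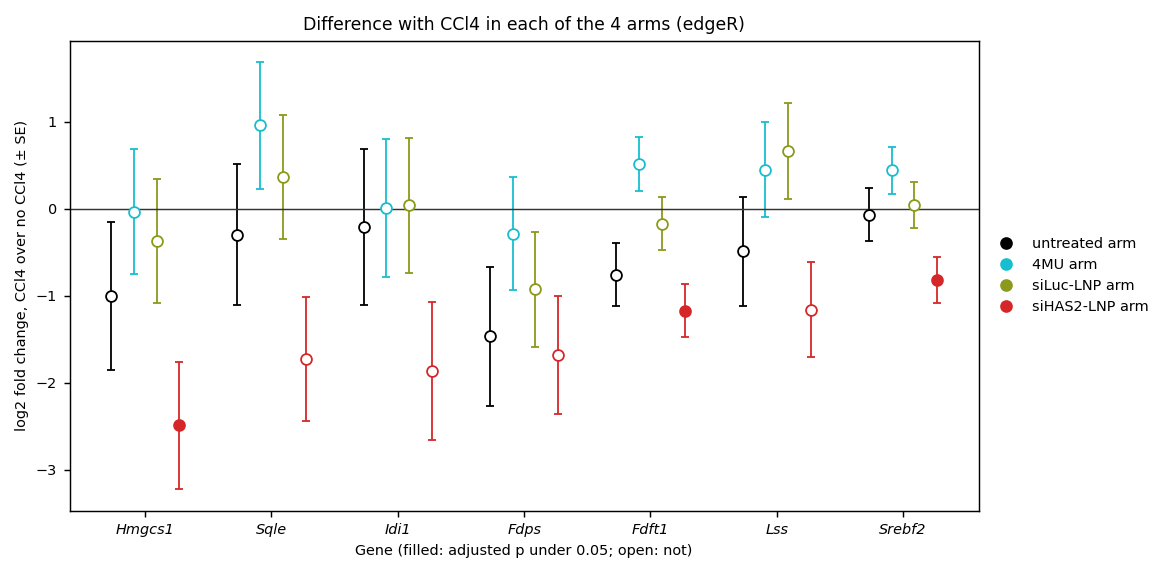
Log2 fold change (± SE, edgeR) of each gene with CCl4 against without it, in the untreated, 4MU, siLuc-LNP and siHAS2-LNP arms; filled points have an adjusted p under 0.05. The filled points are Hmgcs1 (-2.49), Fdft1 (-1.17) and Srebf2 (-0.82) in the siHAS2-LNP arm.

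Whether the effect of CCl4 differed between arms was tested directly. For siHAS2-LNP against siLuc-LNP, the interaction was negative for all 7 genes with a median of -1.82, but 0 passed with edgeR, while 4 (Hmgcs1, Fdft1, Lss and Srebf2) had an unadjusted p under 0.05. Of all tested genes 0.0354% passed and 11.4% had an unadjusted p under 0.05. The interaction of 4MU with CCl4 was positive for all 7 with a median of 0.97, and 0 passed with edgeR, where 5.67% of tested genes did. Fdft1 (1.27 ± 0.47, adjusted p = 0.0954) was the 1 gene with an unadjusted p under 0.05, which 25.5% of tested genes had. The interaction of siLuc-LNP with CCl4 had a median of 0.58, with 0 passing (0 with an unadjusted p under 0.05) and 0.00709% of tested genes passing. Of the 41 other pathway genes, 3 passed in the interaction of 4MU, a share near the 5.67% of all tested genes. These were Tm7sf2 (2.06, adjusted p = 0.0362), Nr1h2 (1.008, adjusted p = 0.0453) and Lcat (1.19, adjusted p = 0.0392). The interactions of 4MU and siLuc-LNP share the control mice and the 2 CCl4 mice. That of siHAS2-LNP shares the mice given siLuc-LNP, with and without CCl4, with that of siLuc-LNP.

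A pair of further contrasts of the CCl4 effect was added after the data were seen. Against the untreated arm, the effect in the siHAS2-LNP arm was lower for all 7 genes, with a median of -0.75, and 0 passed with edgeR (0 with an unadjusted p under 0.05), where 6.40% of tested genes passed. Against the 4MU arm it was lower for all 7 with a median of -1.69, and 1 passed, Fdft1 (-1.69 ± 0.43, adjusted p = 0.0429), where 1.82% of tested genes passed. In that contrast 5 genes had an unadjusted p under 0.05, which 16.7% of tested genes had, and DESeq2 called 2, where it called 3.99% of tested genes. The call of Fdft1 was lost in 11 of the 14 fits that left out 1 mouse, among them those without any 1 of the 4MU or siHAS2-LNP mice, CCl4 + 4MU mouse 1 or 4, or CCl4 + siHAS2-LNP mouse 1, 2 or 3. Of the 41 other pathway genes, Mvk (-2.11, adjusted p = 0.0194) and Abcg1 (-1.35, adjusted p = 0.0169) passed here, and Soat2 (1.78, adjusted p = 0.00905) against the untreated arm.

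The treatments were next compared within injured livers. In CCl4 + 4MU against CCl4 mice 18.3% of tested genes passed, and of the 7 genes 0 did with edgeR (0 with an unadjusted p under 0.05), with 4 higher and 3 lower and a median of 0.26. In CCl4 + siHAS2-LNP against CCl4 mice 14.4% passed, and of the 7 again 0 (0 with an unadjusted p under 0.05), with 2 higher and 5 lower and a median of -0.21. Of the 41 other pathway genes, 4 were higher and 1 lower in the first comparison, and 1 higher and 1 lower in the second. Both shares are smaller than those of all tested genes. Lbr fell in the first (-1.61, adjusted p = 0.00491) and the second (-1.30, adjusted p = 0.0213), and Soat2 rose in the first (1.14, adjusted p = 0.00871) and the second (1.22, adjusted p = 0.00769). In the first, Tm7sf2 (1.28, adjusted p = 0.0419), Nr1h2 (0.98, adjusted p = 0.00535) and Lcat (1.08, adjusted p = 0.00648) rose too. Both comparisons rest on the same 2 CCl4 mice.

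In CCl4 + siLuc-LNP against CCl4 mice, 0 of the 7 passed with edgeR (0 with an unadjusted p under 0.05) and all 7 were higher with a median of 0.46, where 0.248% of tested genes passed. In CCl4 + siHAS2-LNP against CCl4 + siLuc-LNP mice, which sets the Has2 siRNA against its particle control, all 7 were lower with a median of -0.74, and 0 passed (0 with an unadjusted p under 0.05), where 1.09% of tested genes passed. Sqle stood at 8.96, 46.5, 37.7 and 82.7 CPM in CCl4 + siHAS2-LNP mice 1 to 4 and at 147, 68.2, 11.05 and 166 CPM in CCl4 + siLuc-LNP mice 1 to 4, so the groups overlapped. In CCl4 + 4MU against CCl4 + siHAS2-LNP mice 6 were higher and 1 lower with a median of 0.51, and 0 passed, where 1.22% of tested genes passed. Srebf2 (0.51 ± 0.25, adjusted p = 0.265) was the 1 gene with an unadjusted p under 0.05, which 18.6% of tested genes had.

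In mice without injury few genes passed at all. In 4MU against control mice all 7 genes were lower with a median of -0.68, and 0 passed with edgeR, where 0.00709% of tested genes passed. Fdft1 (-0.66 ± 0.31, adjusted p = 0.708) was the 1 gene with an unadjusted p under 0.05, which 6.84% of tested genes had. In siLuc-LNP against control mice 3 were higher and 4 lower with a median of -0.04, and 0 passed (0 with an unadjusted p under 0.05), where 0.213% passed. In siHAS2-LNP against siLuc-LNP mice all 7 were higher with a median of 0.68, and 0 passed (0 with an unadjusted p under 0.05), where 0.0425% passed. Sqle was at 17.1, 118 and 92.4 CPM in the siLuc-LNP mice and at 147, 179.8 and 104 CPM in the siHAS2-LNP mice, and siLuc-LNP mouse 1 was the lowest of its group, as for the other 6 genes. None of the 41 other pathway genes passed in these 3 comparisons (1, 1 and 4 with an unadjusted p under 0.05).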

How the data were processed

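Poly(A) RNA from whole liver was sequenced in pairs on a NextSeq500 with a directional kit. The authors trimmed reads with Trimmomatic 0.39, aligned them to GRCm39 with HISAT2 (version not given in the sources used here) and counted read pairs per gene with featureCounts, leaving out those that fit several places, and the deposited values are these raw counts. The submitters' processing notes also name R 3.4.2 and DESeq2. The strand setting of the counting is not given, so reads of overlapping antisense genes cannot be told apart.

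Symbols and positions came from GENCODE vM39 (GRCm39), which matched 54749 of 55414 identifiers. Genes averaging 10 counts or more over the libraries were tested with edgeR 4.0.16 (quasi-likelihood, TMM, all 8 groups in 1 fit, no covariate) in R 4.3.3. DESeq2 1.42.0, limma-voom (limma 3.58.1), other scalings and filters, a replicate block, only the compared groups and single mice left out were alternatives. The fits were tested on simulated counts. Log2 CPM used a prior count of 2. Replicate numbers did not pair the mice: genes' deviations from group means had a median r of -0.0167 over 83 pairs of mice with the same number and -0.0124 over 234 pairs with different numbers. Copies were searched with blastn 2.17.0, and permutations used numpy 2.4.6 in Python 3.11.15.

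The 7 genes and the pathway and marker lists were chosen with earlier results of these data known. Named genes were the 7, list members past the threshold or of stated spread, the 10 genes most like the enzymes and the 3 most like Srebf2. The example genes of spread were picked after their values were seen. Some genes of the pathway are not reported here. Mice are separate animals of 1 strain and sex.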

Additional observations from a re-analysis of the deposited data

Results flagged for a closer look

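Srebf2 in the CCl4 + siLuc-LNP mice had 1 value far from the others: mouse 3 stood at 48.4 CPM and the other 3 between 78.4 and 80.5 CPM, so that the gap was 0.936 of the range of the group, above Dixon's 95% critical value. Of 28 groups of 4 values tested over the 7 genes this was the 1 that passed, and chance alone gives about 5% of groups. In the same mouse the other 6 genes were lowest of their group too.

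Fdft1 differed between arms in its CCl4 effect: the log2 fold change in the siHAS2-LNP arm minus that in the 4MU arm was -1.69 (standard error 0.435, edgeR adjusted p = 0.0429), from -1.17 in the first and 0.52 in the second. The contrast was added after the data were seen, a choice that the adjusted p does not cover. The call was lost in 11 of the 14 fits that left out 1 mouse. With limma-voom, library totals or the compared groups alone, 0 of the 7 genes passed. A near-identical copy elsewhere in the genome covers 48.0% of the Fdft1 transcript.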

How the results depend on the processing

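Of 2002 values of the 7 genes over all comparisons and alternatives 100 changed sign, and none of these passed the test in either fit. The largest absolute main log2 fold change among those that turned was 0.54. Of the 2002 values, 1043 came from fits without 1 library. A called value lies far from 0 and could hardly turn in such fits, so this count says little about stability. The number of the 7 genes past the threshold moved in some alternatives, and where no reason is given the cause was not tested. Without a low-count filter it was 2 in CCl4 against control, 3 in CCl4 + siHAS2-LNP against CCl4 + siLuc-LNP, 1 each in 4MU against control, siHAS2-LNP against siLuc-LNP, CCl4 + 4MU against 4MU, CCl4 + siLuc-LNP against siLuc-LNP and the interaction of 4MU, 4 in the interaction of siHAS2, 7 in CCl4 + siHAS2-LNP against siHAS2-LNP, and 3 and 6 in the CCl4 effect of the siHAS2-LNP arm against the untreated and the 4MU arm. Fitting the compared groups alone gave 2 in CCl4 against control, 5 in CCl4 + siHAS2-LNP against siHAS2-LNP and 0 for the siHAS2-LNP against the 4MU arm. The mean of the CCl4 groups against the mean of the other groups, which averages the arms, gave 3, where 51.9% of all tested genes passed. The share of all tested genes is not given here for the other scalings and filters or the compared groups alone. Nor is it given for the replicate block or the fits with mice left out. The counts from those fits are therefore not read as particular to the 7 genes.

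For the siHAS2-LNP against the 4MU arm DESeq2 gave 2, limma-voom 0 and library totals 0. In CCl4 + siHAS2-LNP against siHAS2-LNP, leaving out 1 mouse gave 0 to 4, leaving out both extreme mice 0 and library totals 2. Leaving out 1 mouse gave 0 to 2 for the siHAS2-LNP against the 4MU arm. With a replicate block the count in CCl4 + siHAS2-LNP against siHAS2-LNP was 6. The replicate numbers did not pair the mice: 17 of 83 same-number pairs and 60 of 234 different-number pairs lay above an r of 0.1. In CCl4 against control, library totals turned Sqle (0.141), Idi1 (0.232) and Srebf2 (0.34), and leaving out 1 mouse gave -0.67 to 0.0279 for Sqle, -0.59 to 0.122 for Idi1 and -0.116 to 0.033 for Srebf2. Low counts of Fdps, with 12 in the lowest library, and groups of 2 to 4 mice limit what could be detected.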
